A study of Mus musculus with 4 samples.

Results

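The thin filament of heart and striated muscle was followed through 9 genes in mouse embryos that carry a point mutation in Btaf1. The genes were taken by their symbol in the array files: the troponin genes Tnnt1, Tnnt2, Tnni1, Tnni3 and Tnnc1, the actin genes Actc1 and Acta1, Actn2, which encodes the actinin of the Z-disc, and Tpm1, a tropomyosin gene. They were read by 14 of 41174 array probes, of which 13 were bright enough to be tested among 21940 probes. In counts of genes, these are 9 of 13191 genes with a RefSeq symbol and a tested probe.

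In striated muscle, actin polymers carry tropomyosin along their length, and a troponin complex sits on each tropomyosin. Troponin C binds calcium, troponin I holds the filament in the inhibited state, and troponin T ties the complex to tropomyosin. Calcium bound to troponin C lets myosin heads reach actin, and alpha-actinin anchors the filaments at the Z-disc. The heart is the first muscle of the embryo to build sarcomeres, and in the mouse it starts to beat around the stage sampled here, before skeletal muscle has formed.

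RNA came from pools of whole embryos homozygous for the ENU-induced V1330M allele of Btaf1, which encodes an ATPase that takes the TATA-binding protein off DNA, and from pools of wild-type embryos. All animals were hybrids of C57BL/6J and FVB/NJ with 50 to 90% FVB/NJ, and embryos had 3 to 5 somites where possible. Mutant and wild-type RNA shared each of 4 two-colour arrays, 2 arrays with exchanged dyes for each of 2 sets of pools. In the age_matched set as many litter mates as possible were compared and the somite count could differ by up to 5; in the stage_matched set the count of somites had priority. How many embryos made a pool, and the size or direction of any somite difference, is not given in the sources used here. In the age_matched set genotype and somite number therefore cannot be told apart. A somite difference in the stage_matched set is not excluded either. Arrays of the same pools count as 1 replicate, which leaves n = 2 sets, and nothing in the labels says whether the sets came from separate litters.

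Unless an intensity is named, values are mutant over wild type on the log2 scale, with negative values for lower levels in mutant pools. Intensities are background-corrected and dye-balanced brightness in arbitrary units, comparable between the channels of an array and not between probes. Of 43379 spots per array, the mutant channel had 52.9 to 59.6% well above background and the wild-type channel 57.1 to 59.5%, with 0 saturated. Across all tested probes the 2 arrays with the mutant in Cy5 resembled each other (r = 0.706 over 21940 probes, which are not independent) more than the arrays of the same pools did (0.157 in the age_matched and 0.392 in the stage_matched set). Dye effects of single probes thus remained in single-array values, and set means average them out. The 1 probe of Btaf1 read 0.10 ± 0.03 (SD, n = 2; limma adjusted p = 0.555), and since the allele changes 1 amino acid this does not check the labels. Because whole embryos were used, fewer heart cells and less RNA per heart cell cannot be told apart in any value below.

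Probe sequences show what was read. The actin probes and both Tnni3 probes are printed because these genes had the lowest ratios. A pair of Tpm1 probes with about the same ratio (-0.60 and -0.59) is also printed. The Tpm1 probe that differed from them (A_52_P44949, -0.05) is not shown. Each is 60 bases long, 5′ to 3′, with mm9 positions from the array files. The Actc1 probe maps over 924 bases on the minus strand (chr2:113874011-113874934), so its bases are not contiguous in the genome. The Acta1 probe is contiguous (chr8:126416197-126416256, minus strand), as are the Tnni3 probes (chr7:4471117-4471176 and chr7:4472043-4472102, minus strand). The printed Tpm1 probes map over 1556 and 1071 bases (chr9:66875959-66877514 and chr9:66880625-66881695, minus strand). Capitals in the first Tpm1 probe mark a stop codon at bases 46 to 48 when it is read from its first base, followed by 12 bases.
Actc1 A_51_P149469: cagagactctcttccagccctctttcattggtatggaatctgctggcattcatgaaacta
Acta1 A_51_P246854: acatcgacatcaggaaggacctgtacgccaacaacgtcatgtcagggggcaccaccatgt
Tnni3 A_52_P563123: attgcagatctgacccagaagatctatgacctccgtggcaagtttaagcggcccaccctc
Tnni3 A_51_P386983: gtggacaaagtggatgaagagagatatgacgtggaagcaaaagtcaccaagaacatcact
Tpm1 A_51_P325173: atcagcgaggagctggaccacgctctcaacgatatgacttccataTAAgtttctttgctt
Tpm1 A_52_P532910: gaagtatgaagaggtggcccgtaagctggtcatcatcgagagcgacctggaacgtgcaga

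The first comparison asks how much thin filament transcript the mutant embryos had. Troponin I, cardiac and skeletal actin, cardiac troponin T and alpha-actinin transcripts were lower in mutant embryos, while the slow skeletal troponin T gene Tnnt1 was near its wild-type level. Of the 13 tested probes, 9 fell past the threshold (limma adjusted p below 0.05), where 3.14% of all tested probes were lower and 1.66% higher. With each gene represented by its brightest tested probe, 6 of 9 genes fell, beside 2.74% of all 13191 genes. The member median was -0.93, beside a median of 0.02 over all genes. Ratios were negative on all 4 arrays for 10 of 13 probes, against 15.1% of all tested probes. Leaving out age_matched replicate 1 left 2 of 13 probes called, with 23 probes called on the whole array, and the member median was then -0.88. These shares describe the members and are not independent evidence.

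**Figure D1:**
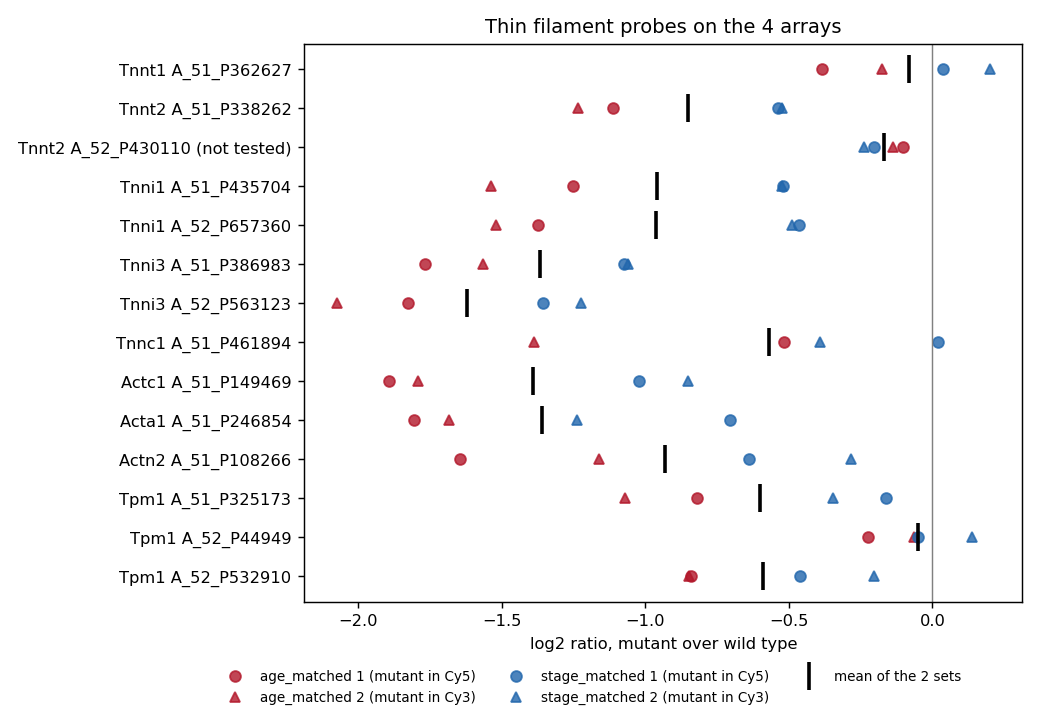
Log2 ratio of mutant over wild type (x axis) for each of the 14 probes (rows) on the 4 arrays. Circles have the mutant in Cy5 and triangles in Cy3, age_matched arrays are red and stage_matched arrays blue, and the black bar is the mean of the 2 sets. Tnni3, Actc1 and Acta1 lie furthest to the left, between -2.07 and -0.71, and Tnnt1 and 1 Tpm1 probe lie around 0.

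Tnni3 encodes cardiac troponin I, the form that predominates in the adult heart. At its brighter probe (A_52_P563123) the mutant channels read 267 and 201 on the age_matched arrays and 329 and 363 on the stage_matched arrays, against 946, 845, 842 and 848 in the wild-type channels. The mutant reading was the lower one on each of the 4 arrays, as for 15.1% of all tested probes. The ratio was -1.62 ± 0.47 (SD, n = 2; limma adjusted p = 0.00315), a level 3.07-fold lower, with a 95% interval from -1.96 to -1.28. The second probe (A_51_P386983) read 143, 104, 211 and 202 in mutant pools and 488, 308, 444 and 421 in wild-type pools, with a ratio of -1.37 ± 0.42 (limma adjusted p = 0.00505). In the authors' deposited table, where the scanning software subtracted the background, this dimmer probe ran from -2.89 to -1.44 over the 4 arrays, a wider fall than the -1.77 to -1.06 found here. Tnni3 was the 1 member whose call held in all 13 settings tried, with ratios from -1.85 to -1.42. Not all of these settings are distinct. Scaling between arrays and the brightness filters leave its ratio unchanged, and the deposited ratios repeat those of the processed signals.

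Tnni1 encodes slow skeletal troponin I, which is the main troponin I of the embryonic mouse heart. Its probe A_52_P657360 (chr1:137705328-137706203) read 1798, 958, 2305 and 2294 in mutant pools, in the order age_matched 1 and 2 and stage_matched 1 and 2, against 4656, 2746, 3177 and 3222 in wild-type pools. The mutant reading was lower on each array. The ratio was -0.96 ± 0.69 (SD, n = 2; limma adjusted p = 0.0342). The second probe (A_51_P435704) gave -0.96 ± 0.62 (limma adjusted p = 0.0274), so both probes placed Tnni1 1.95- and 1.94-fold lower. Both troponin I genes fell, and their intervals overlapped (-1.41 to -0.52 for Tnni1 and -1.96 to -1.28 for Tnni3). Tnni1 was no longer called without age_matched replicate 1 (limma adjusted p = 0.194), without background correction (0.0994) or when dim probes were kept (0.0867).

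Tnnt2 encodes cardiac troponin T, an early marker of heart muscle cells. Its probe A_51_P338262 (chr1:137747976-137748288) read 7042, 4823, 8164 and 7983 in mutant pools and 15233, 11339, 11845 and 11481 in wild-type pools. On each array the mutant reading was lower. The ratio was -0.85 ± 0.45 (SD, n = 2; limma adjusted p = 0.0222), 1.80-fold lower. A second probe under the same symbol (A_52_P430110) was well above background on 0 of 4 arrays in the mutant channel and 1 of 4 in the wild-type channel. It was not tested and gives no fold. The Tnnt2 call ended without age_matched replicate 1 (limma adjusted p = 0.164), without background correction (0.0781) and when dim probes were kept (0.0576).

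Tnnt1 encodes slow skeletal troponin T. It read 506, 326, 687 and 693 in mutant pools and 659.7, 368, 669.6 and 603 in wild-type pools, so the groups overlapped. The ratio was -0.08 ± 0.28 (SD, n = 2; limma adjusted p = 0.732), with an interval from -0.34 to 0.18 that does not reach the ratio of Tnnt2. Tnnt1 and Tnni3 are neighbours on chromosome 7 (probes at chr7:4460086-4460145 and chr7:4471117-4471176), and they read -0.08 and -1.62.

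Tnnc1 encodes troponin C of heart and slow muscle, the calcium sensor of the complex. Mutant pools read 1225, 529, 1502 and 1284, against 1753, 1384, 1479.8 and 1685 in wild-type pools. Mutant readings were lower on 3 of 4 arrays and about equal on stage_matched replicate 1, where the log2 ratio was 0.02. The ratio of -0.57 ± 0.54 (SD, n = 2) did not pass (limma adjusted p = 0.0872), with an interval from -0.94 to -0.20. With 1 array left out the ratio ran from -0.79 without age_matched replicate 1 (limma adjusted p = 0.324) to -0.35 without age_matched replicate 2 (0.174), and it passed without stage_matched replicate 1 alone (-0.67, 0.0351). This probe had the largest dye effect of the members, with the mutant in Cy5 giving a ratio 0.64 higher than the mutant in Cy3.

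Actc1 encodes cardiac alpha-actin, the chief sarcomeric actin of the heart. Mutant pools read 2265, 1444, 4136 and 4531, while wild-type pools read 8409, 4998, 8400.0 and 8166. Mutant readings were lower on each array, and the ratios were lowest on the age_matched arrays. The ratio was -1.39 ± 0.64 (SD, n = 2; limma adjusted p = 0.0113), 2.62-fold lower. Its call ended without age_matched replicate 1 (limma adjusted p = 0.0812) and with no background correction (0.0618).

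Acta1 encodes skeletal alpha-actin, which the embryonic heart also makes. Readings were 456, 313, 953 and 686 in mutant pools and 1591, 1005, 1554 and 1619 in wild-type pools, again lower in mutant pools on each array. The ratio was -1.36 ± 0.55 (SD, n = 2; limma adjusted p = 0.00874), 2.56-fold lower. Its call ended without age_matched replicate 1 (limma adjusted p = 0.0657) and with no background correction (0.0593). Both actins have nearly the same protein sequence, and whether either probe also binds the other transcript was not tested. The Acta1 ratio is therefore uncertain as a measure of skeletal actin alone.

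**Figure D2:**
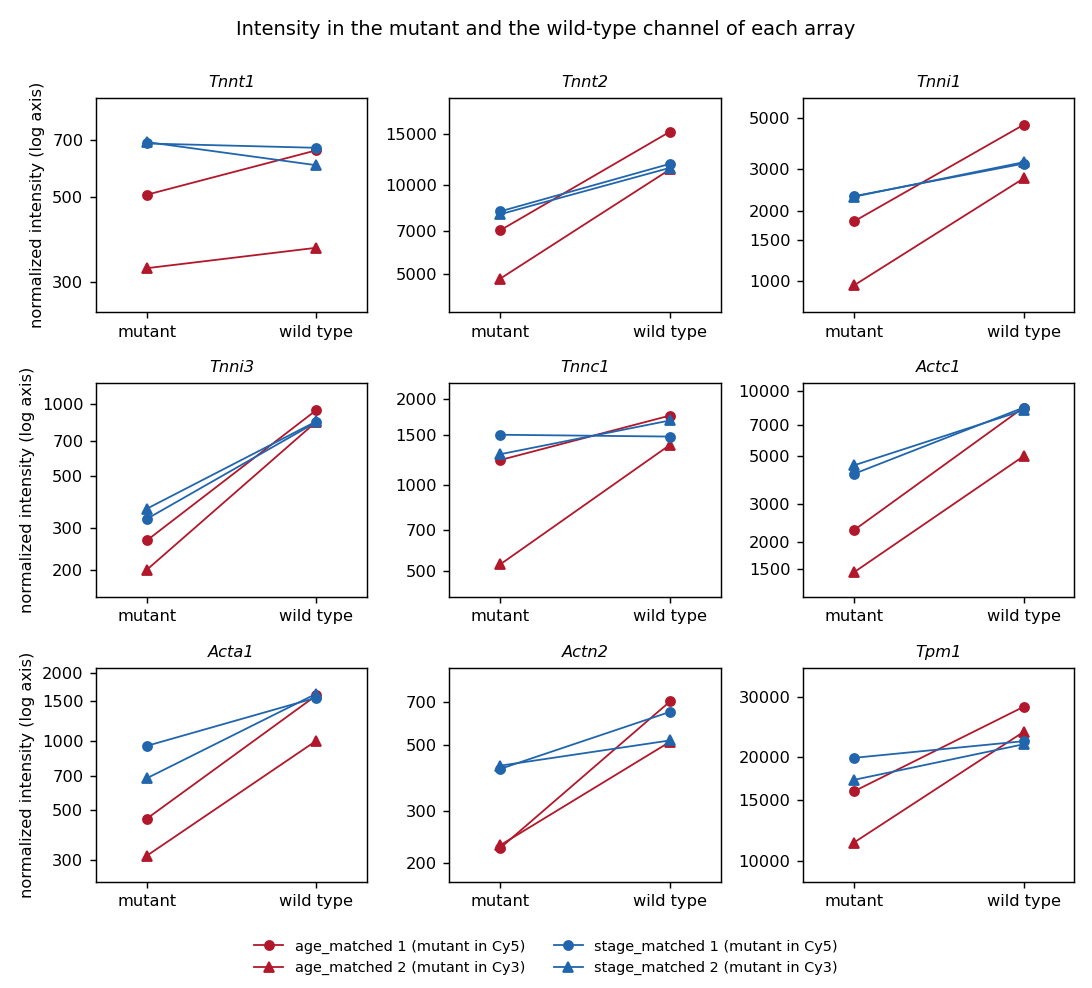
Normalized intensity (y axis, log scale, own range in each panel) of the brightest tested probe of each gene in the mutant and the wild-type channel, with a line for each of the 4 arrays. Red lines are age_matched and blue lines stage_matched arrays, circles have the mutant in Cy5 and triangles in Cy3. Lines rise towards wild type for Tnni3, Actc1 and Acta1 on all arrays, and the Tnnt1 lines are flat or cross.

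Actn2 encodes the alpha-actinin that cross-links thin filaments of neighbouring sarcomeres at the Z-disc. It read 225, 229.9, 416 and 427 in mutant pools and 703, 514, 649 and 519 in wild-type pools, with the mutant reading lower on each array. The ratio was -0.93 ± 0.67 (SD, n = 2; limma adjusted p = 0.0350), 1.91-fold lower. Actn2 lost its call without age_matched replicate 1 (limma adjusted p = 0.191) or age_matched replicate 2 (0.0530), without background correction (0.0951) and when dim probes were kept (0.0873).

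Tpm1 encodes alpha-tropomyosin, and its alternative exons make muscle and non-muscle forms, so its 3 probes need not read the same transcripts. The most upstream probe (A_52_P532910, chr9:66880625-66881695) read 10315, 7702, 13573 and 15038 in mutant pools, against 18466, 13872, 18679 and 17324 in wild-type pools. Mutant readings were lower on each array, although the groups overlapped across arrays. It fell by 0.59 on the log2 scale (SD 0.36, n = 2; limma adjusted p = 0.0425). The next (A_51_P325173, chr9:66875959-66877514) had about the same ratio, -0.60 ± 0.49, and did not pass (limma adjusted p = 0.0644), except without stage_matched replicate 1 (0.0453). The most downstream probe (A_52_P44949, chr9:66870869-66870928) read 12711, 9396, 11873 and 11442 in mutant pools and 14835, 9823, 12297 and 10399.9 in wild-type pools. Its groups overlapped, and its ratio was -0.05 ± 0.13 (limma adjusted p = 0.805) with an interval from -0.27 to 0.17, against -0.88 to -0.29 for the most upstream probe. The difference between probes was not tested.

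Ordered by ratio, the genes ran Tnni3 (-1.62), Actc1 (-1.39), Acta1 (-1.36), Tnni1 (-0.96), Actn2 (-0.93), Tnnt2 (-0.85), Tpm1 (-0.60), Tnnc1 (-0.57) and Tnnt1 (-0.08). Neighbours in this order differed by less than their SD between sets, except Tnnc1 and Tnnt1, whose step lay within the SD of Tnnc1 (0.54) and above that of Tnnt1 (0.28). Among the troponin genes Tnni3, Tnni1 and Tnnt2 fell, while Tnnc1 and Tnnt1 did not pass. Both actin genes and Actn2 fell as well. Tnnc1 and Tnnt2 differed by less than the SD of either, so these calls do not set the troponin subunits apart.

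The second comparison asks whether the ratios were alike in both sets of pools. The mean ratio was lower in the age_matched set for each of the 13 tested probes, with both age_matched arrays below both stage_matched arrays in all 13, where 13.6% of all tested probes showed that order. The member median was -1.40 in the age_matched and -0.48 in the stage_matched set. The difference between the sets passed for 10 of 13 probes (limma adjusted p below 0.05, age_matched minus stage_matched), beside 0.706% of all tested probes with a lower ratio in the age_matched set. Its error comes from repeat hybridisations of the same RNA with exchanged dyes, so it holds no variation between embryos. With median centring in place of loess or with no background correction 0 of 13 passed, and with the software's processed signals 5 did, although over the 7 settings run for it the difference stayed between -1.20 and -0.35 for all 9 genes.

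Tnni1 had the largest difference, -0.97 (limma adjusted p = 3.48e-05): its level was 36.7% of wild type in the age_matched and 71.9% in the stage_matched set. Actn2 followed at -0.94 (limma adjusted p = 6.15e-05), with 37.8% and 72.6% of wild type. Actc1 was at 27.9% and 52.3% of wild type in the same order, a difference of -0.91 (limma adjusted p = 0.000135). The ratios of these genes were negative on all 4 arrays. The second probes of Tnni1 and Tnni3 differed by -0.87 and -0.60 (limma adjusted p = 0.000281 and 0.0347).

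Acta1 and Tnnc1 each differed by -0.77 (limma adjusted p = 0.00222 and 0.00235), the Tpm1 probe A_51_P325173 by -0.69 (0.00867), Tnni3 by -0.66 (0.0146) and Tnnt2 by -0.64 (0.0193). Tnni3 nevertheless stood at 40.9% of wild type in the stage_matched set, the lowest of the members there, and at 25.9% in the age_matched set. Tnnc1 was at 51.7% of wild type in the age_matched set and 87.9% in the stage_matched set. Tnnt1 (-0.40, limma adjusted p = 0.294), the most upstream Tpm1 probe (-0.51, 0.105) and the most downstream one (-0.19, 0.780) did not pass, with intervals of -0.74 to -0.05, -0.86 to -0.17 and -0.53 to 0.16.

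**Figure D3:**
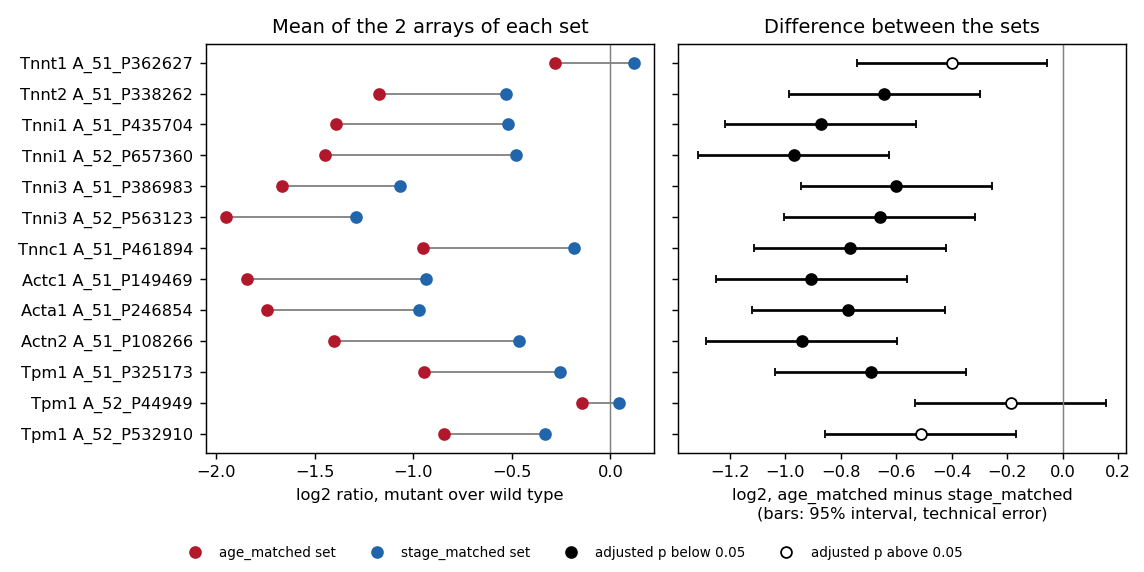
Left, mean log2 ratio of mutant over wild type in the age_matched (red) and stage_matched (blue) set for the 13 tested probes, joined by a line. Right, the difference age_matched minus stage_matched with its 95% interval from the spread between dye-exchanged arrays, filled where the limma adjusted p was below 0.05. All 13 differences are negative, from -0.97 for Tnni1 to -0.19 for the downstream Tpm1 probe.

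Other genes of the thin filament and the Z-disc were followed in a list of 34 genes, of which 26 had a tested probe. Here 5 fell and 0 rose, 21 of 26 ratios were negative, and the median was -0.20. Over all genes 2.74% were called lower. Smpx, a small protein of striated muscle, fell by 1.06 ± 0.49 (SD, n = 2; limma adjusted p = 0.0148). Lmod3, a leiomodin that promotes actin filament assembly, fell by 0.76 ± 0.51 (0.0358), and Tmod1, which caps the pointed end of the thin filament, by 0.63 ± 0.15 (0.0189). Tnnc2, troponin C of fast skeletal muscle, fell by 0.51 ± 0.01 (limma adjusted p = 0.0256). The fifth was Tmod2, a tropomodulin best known from neurons, at -0.50 ± 0.08 (limma adjusted p = 0.0284).

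Between the sets, 5 of these 26 genes had a lower age_matched ratio past the threshold, beside 0.706% of all tested probes. Ankrd1, a stress-responsive cardiac ankyrin repeat protein, differed by -1.16 (limma adjusted p = 2.8e-07), Csrp3, a Z-disc LIM protein, by -0.81 (0.00128) and Nebl, the cardiac nebulette, by -0.75 (0.00314). Lmod3 and Smpx differed by -0.72 and -0.69 (limma adjusted p = 0.00533 and 0.00944), while Tmod1 and Tnnc2 differed by -0.21 and 0.02 (0.743 and 0.990) and did not pass. Fast skeletal Tnnt3 and Tnni2, relatives of the troponin members, read 0.10 and -0.11 (limma adjusted p = 0.575 and 0.584); they, Ankrd1, Csrp3 and Nebl were named after their values were seen. The fast skeletal genes of the troponin complex thus gave both a call and values near 0.

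A further list held 12 other actin, actinin, tropomyosin and actin-binding genes, mostly of non-muscle and smooth muscle forms, with cofilin, profilin and caldesmon among them. Of these, 2 fell and 0 rose, with a median of -0.15, beside 2.74% of all genes called lower. Actg2, a smooth muscle actin, fell by 0.61 ± 0.25 (SD, n = 2; limma adjusted p = 0.0257) and Tpm2, a beta-tropomyosin that striated muscle also uses, by 0.43 ± 0.15 (0.0486). The cytoplasmic actin genes Actb and Actg1 read 0.18 and -0.19 (limma adjusted p = 0.399 and 0.327), and the non-muscle actinin genes Actn1 and Actn4 read -0.16 and 0.06 (0.385 and 0.771). These 4 were named after their values were seen, and their single arrays ran from -0.76 to 0.86. Acta2, also a smooth muscle actin and also named after its value was seen, read -0.59 ± 0.45 without passing (limma adjusted p = 0.0586). Between the sets 6 of the 12 differences were negative. Only that of Acta2 passed as lower in the age_matched set (-0.64, limma adjusted p = 0.0207), beside 0.706% of all tested probes.

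The thick filament list, which holds the myosin partners, had 9 of 13 tested genes lower, 0 higher and a median of -0.83. The share called lower over all genes was 2.74%. The lowest called ratios were those of the myosin heavy chain genes Myh7 (-1.69 ± 0.35, SD, n = 2; limma adjusted p = 0.00149) and Myh6 (-1.36 ± 0.78, 0.0191) and the light chain genes Myl2 (-1.48 ± 0.57, 0.00833) and Myl4 (-1.26 ± 0.70, 0.0189). Its set medians were -1.14 in the age_matched and -0.52 in the stage_matched set, beside -1.40 and -0.48 for the thin filament members. Between the sets 9 of 13 thick filament genes and 8 of 9 members had a lower age_matched ratio past the threshold, beside 0.706% of all tested probes. No test between these lists was made.

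Of 18 cardiac transcription factors 4 fell and 0 rose, with a median of -0.17, beside 2.74% of all genes called lower. Myocd, the myocardin coactivator of SRF, fell by 0.72 ± 0.33 (SD, n = 2; limma adjusted p = 0.0220), Mef2c by 0.51 ± 0.25 (0.0425), Tbx5 by 0.41 ± 0.04 (0.0463) and Irx4 by 0.41 ± 0.08 (0.0491). Between the sets 0 of 18 passed, and 4 of 18 differences were negative, where 9 of 9 members and 49.7% of all tested probes had negative differences. These shares were not tested against each other. Myocd read -0.49 in the age_matched and -0.95 in the stage_matched set, Mef2c -0.33 and -0.68, and Tbx5 -0.38 and -0.44. Irx4 went the other way, with -0.46 and -0.35.

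**Figure D4:**
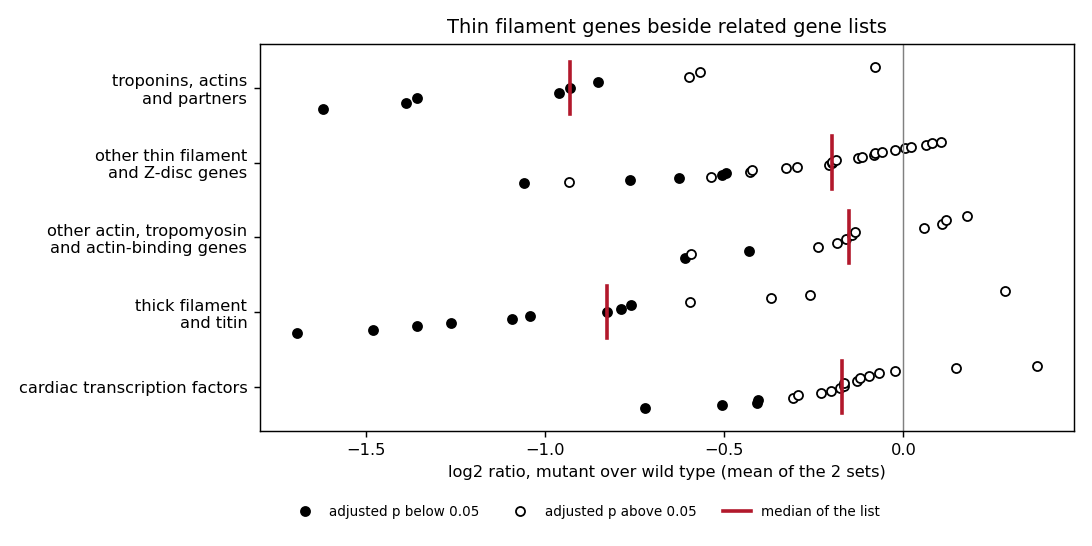
Log2 ratio of mutant over wild type (mean of the 2 sets, x axis) of each tested gene in 5 lists (rows), filled where the limma adjusted p was below 0.05, with the list median in red. The 9 members (top row) have a median of -0.93 and the thick filament genes -0.83, while the remaining 3 lists have medians from -0.20 to -0.15.

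Markers of cell types place these values in the whole embryo, where 2.74% of all genes were called lower. All 11 tested heart muscle markers had negative ratios (6 fell, median -0.76). Of these 6, 5 are myosin genes already counted in the thick filament list. Among the markers outside the sarcomere Nppa, which encodes atrial natriuretic peptide, fell by 1.51 ± 0.89 (SD, n = 2; limma adjusted p = 0.0194), and the other 5 ran from -0.67 to -0.18 without passing. The 11 markers had a summed intensity of 37371 to 65927 in mutant and 105622 to 152599 in wild-type channels. Of 12 skeletal muscle markers 6 were tested. Myod1 read 0.02 and 2 fell, Myh8 (-0.88) and Tnnc2, while the other 6, among them Myog, did not pass the brightness filter. The summed intensity of the 6 tested was 1313 to 2028 in mutant and 1863 to 2602 in wild-type channels. All 8 smooth muscle markers were negative (2 fell, median -0.46), with sums of 12054 to 26295 in mutant and 18227 to 37064.5 in wild-type channels. All 8 yolk sac endoderm markers fell, with a median of -1.06 and sums of 21134 to 26671 in mutant and 45974 to 78851 in wild-type channels. Among 6 primitive red cell markers 2 fell (median -0.55, sums of 2709 to 8565 in mutant and 12063 to 22011 in wild-type channels). Of 8 endothelial markers Kdr fell (median -0.22, sums of 4149 to 5846 in mutant and 4977 to 6911 in wild-type channels), and of 6 neural tube markers Zic1 fell (median -0.16, sums of 3638 to 5329 in mutant and 4036 to 6024 in wild-type channels). The part of these cell types in the member ratios was not tested.

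Patterns like that of the members were searched over 13182 other genes by Euclidean distance from the median member profile on the 4 arrays, which was -1.37 and -1.39 on the age_matched and -0.54 and -0.49 on the stage_matched arrays. The 6 nearest were En2, a transcription factor of the midbrain and hindbrain (distance 0.180), Ccnd2, cyclin D2 (0.199), Myh8, a myosin heavy chain of developing muscle (0.202), Sh3bgr (0.381), Lmod3 (0.416) and Smpx (0.423). Their mean ratios ran from -1.06 for Smpx to -0.76 for Lmod3. The 4 arrays come from 2 pairs of pools, so closeness describes a shared size and order of ratios in those pools.

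Upstream sequence was examined because most members were lower together and BTAF1 acts on the protein that binds TATA boxes. RefSeq windows of 250 bases before to 50 after the annotated start (GRCm38.p6) existed for all 9 genes, 11 windows in all. The letters TATAAA, searched on both strands, were in the windows of 3 genes, Actc1, Acta1 and Tnnt1, and in 13.6% of all 32851 windows. The CArG box, the site bound by SRF, was in the windows of Actc1 and Acta1 and in 1.63% of all windows. The letters GATAA were in 1 window of Tnnt2 and in that of Tnni3 (25.4% of all), and the MEF2 box was in 0 of 11 (1.86% of all). No motif overlapped another.

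The 120 bases before the annotated start follow on the strand of the gene, 5′ to 3′, with CArG boxes and TATAAA in capitals. They are shown for the genes whose windows hold TATAAA, of which Actc1 and Acta1 fell and Tnnt1 did not pass. Tnni3, Tnni1, Tnnt2 and Actn2, without TATAAA in their windows, fell too. A link between motif and ratio was not tested. In Actc1 (chr2:114052876-114052995, minus strand) the CArG box begins 47 bases before the annotated start, and TATAAA lies 33 bases after it and so outside the stretch. In Acta1 (chr8:123894776-123894895, minus strand) they begin 73 and 7 bases before the start. In Tnnt1 (chr7:4515976-4516095, minus strand) TATAAA begins 30 bases before it. A match is a description of letters and not a bound site.
Actc1: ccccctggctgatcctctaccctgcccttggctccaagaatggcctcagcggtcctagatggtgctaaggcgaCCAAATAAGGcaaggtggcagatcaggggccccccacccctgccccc
Acta1: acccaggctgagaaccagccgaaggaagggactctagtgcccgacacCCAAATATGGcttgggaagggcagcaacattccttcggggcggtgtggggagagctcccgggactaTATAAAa
Tnnt1: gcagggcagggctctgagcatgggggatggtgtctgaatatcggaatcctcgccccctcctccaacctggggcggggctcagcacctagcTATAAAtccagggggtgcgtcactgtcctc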

How the data were processed

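Spot and background intensity in Cy3 and Cy5 came from the scanner output that the authors deposited, without normalization. The scanning software (Feature Extraction 10.5.1.1 per the file headers, 9.5.3 per the submitters' processing notes) also gave processed intensity and log10 ratios of Cy5 over Cy3. The authors' deposited value table holds those log10 ratios, turned so that mutant stands on top. No value was further than 5e-06 from the scanner column, each array's median was 0, and genes were not centred. All 4 arrays were on 1 slide, so slide and group are not confounded. The number of arrays limits the precision.

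From the deposited intensity, limma 3.58.1 (R 4.3.3) gave log2 ratios: marked spots left out, normexp background correction (offset 50), loess within arrays with control spots at weight 0, the sign turned on dye-exchanged arrays, spots of a probe averaged. Probes were tested where the channel of the same genotype was well above background on each of the 4 arrays, for at least 1 genotype, which left 21940. Set means were fitted with limma (1 residual and 7.12 prior degrees of freedom), two-sided, Benjamini-Hochberg over all tested probes, threshold 0.05. The difference between sets was fitted with limma on 4 arrays with a term for dye, and its moderated errors were nearly alike for all probes. P-values measure the spread between 2 sets of pools, or, for the difference, between arrays. The 2 sets were matched by different rules, so the spread between them, and each SD, also holds any effect of the matching. The fits were also run on simulated ratios with the same noise for all probes and no dye effect. The arrays do have dye effects, so that run cannot show how the fits perform on them. Symbols came from RefSeq by accession (25097 probes), file symbol (6333) or synonym (1640), and sequences from the array files and RefSeq.

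Members and lists were chosen with earlier results of these data known. Named genes are all members with every probe, up to 4 called genes per list and direction with the largest ratios, the 6 genes nearest in profile, up to 2 markers per cell type, and genes said to be named after their values were seen. The fifth called gene of a list is named to complete its count. Alternatives were the background correction, normalization, signal columns, brightness filter, scaling between arrays, the probe that stands for a gene, the deposited ratios and each array left out. Protein sequences were not used here.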

Additional observations from a re-analysis of the deposited data

Results flagged for a closer look

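The ratio of mutant over wild type differed between the age_matched and the stage_matched set for 8 of the 9 genes by a test of the difference itself (limma adjusted p below 0.05, age_matched minus stage_matched), beside 0.706% of all tested probes with a lower age_matched ratio. Of the 13 member probes 10 passed, and 0 passed with median centring or with no background correction. The differences were -0.97 for Tnni1, -0.94 for Actn2, -0.91 for Actc1, -0.77 for Acta1 and for Tnnc1, -0.69 for Tpm1, -0.66 for Tnni3 and -0.64 for Tnnt2. The error of this test is technical, and the cause of the differences was not tested. The age_matched set accepted up to 5 somites between mutant and wild-type embryos. Heart muscle markers had medians of -1.09 in the age_matched and -0.43 in the stage_matched set, smooth muscle markers -0.70 and -0.17, primitive red cell markers -0.73 and -0.38, and yolk sac endoderm markers -1.03 and -1.20. In the same order, skeletal muscle markers had -0.25 and 0.03, endothelial markers -0.29 and -0.15, and neural tube markers -0.19 and -0.18. Within the red cell list the differences of the 3 globin genes ran from -1.06 to -0.87 and those of the other 3 genes from 0.17 to 0.25.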

How the results depend on the processing

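No member ratio and no median of the members or of the 4 gene lists changed sign in any alternative run. The marker lists were not run under alternatives, and calls of single genes in the 4 gene lists were not followed there. Of the 9 members only Tnni3 was called in all 13 settings. Aquantile scaling changes no ratio by construction, and the deposited ratios repeat those of the processed signals, so these settings are not all distinct. Over all alternatives, member ratios kept their side of the threshold 92 times, lost a call 14 times and gained one 2 times. Member differences between the sets kept it 33 times and lost a call 21 times. Both tallies count Tnnt1, which was never called, and settings that leave the values unchanged (Aquantile scaling and the brightness filters). All lost calls of the difference came from the settings that do change it: median centring, no background correction and processed signals. The probes called on the whole array, 1055 here, were 62 with no background correction, 1824 with processed signals, 599 with no filter on dim probes, and 23 to 1208 with 1 array left out. Higher probes made up 34.6% of those called, against 12.7% with median centring. Member probes called, 9 of 13 here, were 2 with no background correction, 4 of 14 with no filter on dim probes and 2 to 10 with 1 array left out. The member median ran from -0.95 to -0.85 with 1 array left out. Probes whose difference between the sets passed, 507 here and 10 of them members, were 1 and 0 with median centring, 0 and 0 with no background correction, and 150 and 5 with processed signals. The cause of these changes was not tested. With an array left out, the remaining array of that set has 1 dye orientation, and the difference between the sets has no residual degrees of freedom and was not refitted. The number of an array names its dye orientation, which the fit of the difference holds as a term, and both arrays of a set are averaged in the fit of the mean. Dim probes limit what can be said of the second Tnnt2 probe.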
